A study of Homo sapiens with 6 samples.

Results

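MCL1 and 9 other genes of the BCL2 family were followed in AGS cells, which are epithelial cells of an established human line from a gastric adenocarcinoma, after transfection with mimics of the microRNA miR-3648. The members were taken by name from the deposited gene table: the anti-apoptotic genes MCL1 and BCL2L1, the effector genes BAX and BAK1, and the BH3-only genes BBC3, PMAIP1, BID, BAD, BCL2L11 and BIK. Each name matched 1 row, so 10 of the 11187 listed protein-coding genes are described, and all 10 were among the 10286 genes with a mean of at least 1 FPKM over the 6 libraries that were tested. FPKM is the number of fragments scaled to the length of the transcript and to the mapped fragments of the library. The study compared 3 libraries of AGS cells transiently transfected with miR-3648 mimics against 3 libraries of AGS cells transiently transfected with NC; the labels do not spell out NC, which serves as the control. Both groups are the same unmodified line grown in the same serum medium, and a mimic raises the microRNA by transfection rather than from its own gene. Separate cultures are not stated for the replicates, and the p-values therefore reflect only how far these libraries differ, possibly for technical reasons. Neither the time after transfection nor the dose of the mimics is given in the sources used here.

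The BCL2 family controls the permeability of the outer mitochondrial membrane, the step that commits a cell to the intrinsic pathway of apoptosis. Anti-apoptotic members such as MCL1 and BCL-XL, the long product of BCL2L1, hold effectors and BH3-only proteins in check. The effectors BAX and BAK oligomerize in the membrane and release cytochrome c, and the BH3-only proteins report stress by binding the anti-apoptotic members or by activating the effectors. MCL1 has a short-lived mRNA and a short-lived protein, and many epithelial tumours depend on MCL1, on BCL-XL or on both.

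The mature microRNA is shown because its seed defines the sequence words that were looked for in the members. It has 21 bases in RefSeq, where it is placed on chromosome 21 of GRCh38.p14, and capitals mark the seed, bases 2 to 8.
hsa-miR-3648: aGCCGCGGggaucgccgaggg
Sites were sought in the transcript with the longest coding sequence of each gene in GENCODE v29, on the sense strand only, as CCGCGGC (pairing with bases 2 to 8) or CGCGGCA (pairing with bases 2 to 7 followed by A). None of the 10 members held either word in the 3' UTR, where 1.67% of 10213 tested genes did. BCL2L1 held 1 in the 5' UTR, where 14.4% of tested genes did, and no member held one in the coding sequence, where 14.3% did. MCL1 held the shorter word CGCGGC, which lies inside both longer ones, at 2 places in its coding sequence, and 23.5% of tested genes held that word there. The 3 matches are printed with up to 30 bases of context, capitals marking the match.
MCL1, coding bases 230 to 235: cccggagggtcgCGCGGCcgccgcccattg
MCL1, coding bases 312 to 317: gcccacccgccgCGCGGCgccgcttgagga
BCL2L1, 5' UTR bases 9 to 15: gcaggaggCCGCGGCtgcggagcggcc
These matches are descriptions of letters in 1 transcript per gene, and nothing about binding was measured. The 3' UTR of MCL1, 2819 bases long, also held 10 copies of ATTTA, the core of AU-rich elements that shorten mRNA life, a number that 11.6% of 10035 tested genes with a 3' UTR reached. BCL2L11 held 8 in a 3' UTR of 4216 bases, against a median of 2 over those genes. BAX, BAK1, BBC3, PMAIP1 and BAD held 0 in the transcript searched, and their other transcripts were not searched. Per kilobase, MCL1 held 3.55, BIK 2.46 and BCL2L11 1.90, against a median of 1.55 over those genes. BCL2L1 lay between BIK and BCL2L11, and BID, at 1.39, lay below the median.

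NC replicate 3 stood apart from the other controls, and this bears on every member. Its log2(FPKM + 1) correlated across tested genes with NC replicates 1 and 2 at r = 0.971 and 0.964 and with the mimic libraries at 0.978 to 0.979, while NC replicates 1 and 2 correlated at 0.982. Its deviation from NC replicates 1 and 2 ran against the GC content of the transcript over tested genes (Spearman's rho -0.71), as did the difference between the groups (rho -0.50). Values are therefore also given without that library, or after each library's trend with GC content was subtracted, wherever a call depends on it. Epithelial genes, taken as a sum, marked the cells in all libraries. The 5 markers KRT8, KRT18, KRT19, EPCAM and CDH1 summed to 885 to 903 FPKM in mimic libraries and to 767 to 942 FPKM in NC libraries. Single values among these 5 ran from 2.48 to 326 FPKM, so not each of them was high. Of 13 fibroblast, leukocyte and endothelial markers, 4 were listed in the table (COL1A1, LYZ, CD68 and ESAM), none above 5.50 FPKM in any library. The summed leukocyte markers were at 5.03 to 5.51 FPKM in mimic libraries and 6.41 to 7.33 FPKM in NC libraries, COL1A1 at 0.940 to 0.998 and 1.07 to 1.48 FPKM, and ESAM at 1.87 to 2.84 and 1.95 to 2.96 FPKM. Their part in any difference of the members was not tested.

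MCL1, an anti-apoptotic member, fell in the mimic libraries, and it was the single member that passed the test over all 6 libraries. It was at 50.7, 50.6 and 51.3 FPKM in mimic replicates 1, 2 and 3, against 72.1, 71.8 and 74.7 FPKM in NC replicates 1, 2 and 3. The groups lay far apart, and relative to its mean (coefficient of variation) MCL1 had the smallest spread of the 10 members within each group. The level averaged 50.9 ± 0.395 FPKM with mimics and 72.9 ± 1.6 FPKM with NC (SD, n = 3 each), so it fell by 30.2%. On the log2(FPKM + 1) scale the difference was -0.51 (SE 0.057, 95% interval -0.65 to -0.38), with a limma adjusted p of 0.026 over all tested genes. It is 1 of 42 genes (0.408% of those tested) that passed, 24 higher (0.233%) and 18 lower (0.175%), and 2282 genes (22.2%) had groups that did not overlap. Among the 18 that fell, MCL1 had the third-highest level in NC libraries, while 17 of them, MCL1 included, fell by at least as much.

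NC replicate 3, which departed from the other controls in many genes, departed little in MCL1, by 0.054 on the log2 scale. MCL1 was called without that library (log2 fold change -0.49, limma adjusted p = 0.014, where 14.8% of genes were called) and after correction for GC content (-0.55, limma adjusted p = 0.0035, where 1.18% were called). Its transcript has 45.1% GC, below the mean of 50.0% over tested genes. Without any one of the other 5 libraries the difference lay between -0.52 and -0.51, but the limma adjusted p was between 0.066 and 0.17 and MCL1 was not called. The share of all genes called in those settings was 0.107%, 0.0778% and 0.0875% without mimic replicates 1, 2 and 3, and 0.0778% and 0.0972% without NC replicates 1 and 2. It was also not called with replicate numbers as blocks (0.107% of genes called, and 0.127% with GC correction as well). It was called with other pseudocounts (0.408% and 0.399%), without a filter (0.349%), above 5 FPKM (0.475%), after quantile normalization (0.399%), after scaling to the same median (0.34%) and without the intensity trend in limma (0.36%). In such bulk samples, fewer cells with the transcript and less of it per cell cannot be told apart. The MCL1 gene (ENSG00000143384) lies at chr1:150547027-150552214 on the minus strand of GRCh37, and no other listed gene overlaps it.

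**Figure D1:**
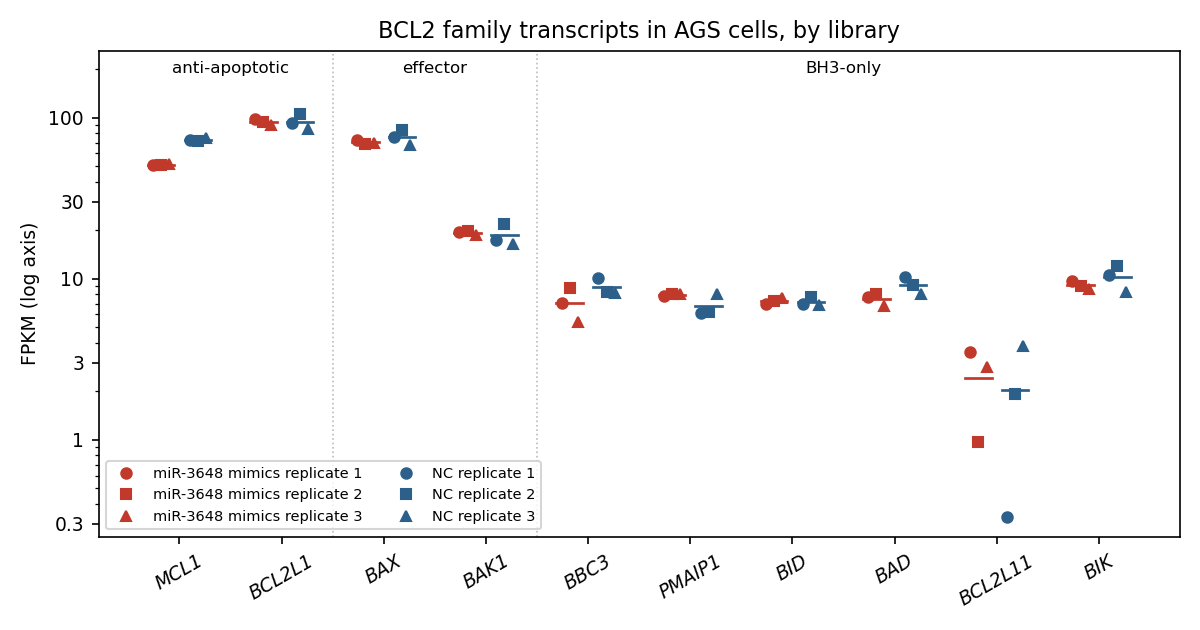
FPKM of the 10 members on a log axis, with mimic libraries in red left of NC libraries in blue, a symbol per replicate and a bar at each group's mean. MCL1 sits at 50.6 to 51.3 FPKM in mimic libraries and at 71.8 to 74.7 FPKM in NC libraries, and the groups of the other 9 members overlap.

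BCL2L1, which encodes BCL-XL, was the most abundant member and did not pass the test. It was at 97.6, 93.3 and 90.2 FPKM in mimic libraries and at 92.9, 105 and 84.7 FPKM in NC libraries. The mimic values lay inside the range of the controls. The means were 93.7 ± 3.70 and 94.3 ± 10.3 FPKM (mimics and NC, SD, n = 3 each), with a log2 fold change of -0.0043 (95% interval -0.22 to 0.21, limma adjusted p = 0.99). Its sign depended on the setting, at 0.070 after GC correction and -0.078 without NC replicate 3. BCL2L1 lies at chr20:30252255-30311792 on the minus strand of GRCh37, and a gene total cannot separate the anti-apoptotic long product from the short pro-apoptotic one.

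The balance between the 2 anti-apoptotic transcripts was read within each library, where a scaling common to all genes cancels. A trend with GC content does not cancel, as the MCL1 transcript has 45.1% GC and that of BCL2L1 56.9%. MCL1 stood at 0.520, 0.542 and 0.569 of the BCL2L1 level in mimic libraries, against 0.776, 0.682 and 0.882 in NC libraries. Each mimic ratio lay below each NC ratio. The log2 ratio differed by -0.51 between mimics and NC, with a two-sided exact permutation p of 0.1 (n = 3 each), the smallest that 20 assignments of the libraries allow. Without NC replicate 3 the difference was -0.42, and the part of GC content in it was not tested. With BCL2L1 at a log2 fold change of -0.0043, the ratio largely restates the fall of MCL1 and is not a separate result. MCL1 made up 17.9% to 19.1% of the summed FPKM of the 10 members in mimic libraries and 21.9% to 26.1% in NC libraries.

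**Figure D2:**
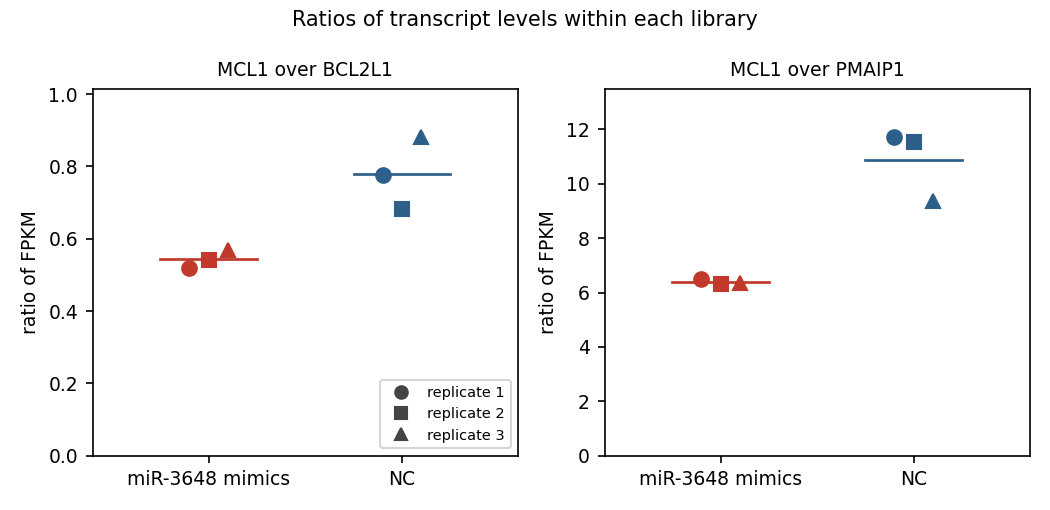
Ratio of the MCL1 FPKM to that of BCL2L1 (left) and of PMAIP1 (right) in each library, mimics left of NC, with bars at the means. The ratio to BCL2L1 is at most 0.569 in mimic libraries and at least 0.682 in NC libraries, and that to PMAIP1 is at most 6.48 and at least 9.36.

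The effector genes did not pass the test. BAX, whose protein moves from the cytosol to mitochondria during apoptosis, was at 73.0, 68.6 and 69.2 FPKM in mimic libraries and at 76.0, 83.4 and 67.2 FPKM in NC libraries. NC replicate 3 was the lowest of the 6, and the groups overlapped. The log2 fold change was -0.097 (95% interval -0.31 to 0.11, limma adjusted p = 0.62). It was -0.18 without NC replicate 3 (limma adjusted p = 0.097) and -0.0064 after GC correction. BAK1, whose protein resides in the outer mitochondrial membrane and is held there by MCL1 and BCL-XL, was at 19.4, 19.7 and 18.6 FPKM in mimic libraries and at 17.4, 21.9 and 16.5 FPKM in NC libraries. The mimic values again lay inside the range of the controls, with a log2 fold change of 0.058 (95% interval -0.20 to 0.32, limma adjusted p = 0.81). Without NC replicate 3 it was -0.019. BAX lies at chr19:49458072-49465055 (plus strand) and BAK1 at chr6:33540324-33548070 (minus strand) of GRCh37.

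PMAIP1 encodes NOXA, a BH3-only protein that binds MCL1 and promotes its degradation. It was at 7.81, 8.0 and 8.08 FPKM in mimic libraries, against 6.15, 6.21 and 7.98 FPKM in NC libraries. NC replicates 1 and 2 lay below all mimic libraries, and NC replicate 3 lay among them. The log2 fold change was 0.21 (95% interval -0.041 to 0.47) and did not pass (limma adjusted p = 0.40). Leaving out NC replicate 3 gave 0.32, at a limma adjusted p of 0.032, in a setting where 7.76% of tested genes were called higher. GC correction on top of that, a setting added once the values were known, gave 0.27 at a limma adjusted p of 0.090, where 1.16% of genes were called. The planned GC correction over all 6 libraries gave 0.18 at a limma adjusted p of 0.32, where 1.18% were called. The MCL1 level was 6.48, 6.32 and 6.35 times that of PMAIP1 in mimic libraries and 11.7, 11.5 and 9.36 times in NC libraries, which is given without a test.

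BBC3 and BAD, the members richest in GC, had negative log2 fold changes that did not pass. BBC3 encodes PUMA, a BH3-only protein that binds all anti-apoptotic members, and was at 7.06, 8.78 and 5.35 FPKM in mimic libraries and at 10.1, 8.26 and 8.19 FPKM in NC libraries. Mimic replicate 2 lay among the controls. The log2 fold change was -0.30 (95% interval -0.70 to 0.089, limma adjusted p = 0.43). It was -0.35 without NC replicate 3 (limma adjusted p = 0.24) and -0.15 after GC correction. BAD, whose protein is kept inactive by growth factor signals and binds BCL-XL, was at 7.75, 8.08 and 6.75 FPKM in mimic libraries and at 10.3, 9.08 and 8.0 FPKM in NC libraries. NC replicate 3 lay just below the highest mimic value. The log2 fold change was -0.25 (95% interval -0.51 to 0.019, limma adjusted p = 0.37). It was -0.33 without NC replicate 3 (limma adjusted p = 0.074) and -0.087 after GC correction. Their transcripts have 65.9% and 66.3% GC, and the part of GC content in these differences was not tested beyond that correction. BAD overlaps GPR137 on the other strand over 14643 bases, and whether strand was used in the quantification is not given in the sources used here. GPR137 was at 2.36 to 2.74 FPKM in mimic libraries and at 2.31 to 4.10 FPKM in NC libraries.

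BIK and BID completed the members at a middle level. BIK, a BH3-only protein of the endoplasmic reticulum, was at 9.71, 8.99 and 8.62 FPKM in mimic libraries and at 10.5, 12 and 8.32 FPKM in NC libraries. NC replicate 3 was again the lowest value, and the log2 fold change was -0.15 (95% interval -0.46 to 0.16, limma adjusted p = 0.61). It was -0.28 without NC replicate 3 (limma adjusted p = 0.077) and -0.082 after GC correction. BID, which caspase-8 cleaves to link death receptors to mitochondria, was at 7.0, 7.31 and 7.64 FPKM in mimic libraries and at 6.96, 7.72 and 6.88 FPKM in NC libraries. Its groups overlapped almost wholly, with a log2 fold change of 0.023 (95% interval -0.17 to 0.22, limma adjusted p = 0.90).

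BCL2L11, which encodes the potent BH3-only protein BIM, was the least abundant and the most variable member. It was at 3.5, 0.965 and 2.83 FPKM in mimic libraries and at 0.333, 1.92 and 3.85 FPKM in NC libraries. Both the lowest and the highest value belonged to NC libraries. The coefficient of variation was 54.0% with mimics and 86.5% with NC, where MCL1 had 0.777% and 2.20%. The log2 fold change was 0.28 with a 95% interval from -0.90 to 1.46 (limma adjusted p = 0.80), an interval wide in both directions. The gene lies at chr2:111876955-111926024 on the plus strand of GRCh37.

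**Figure D3:**
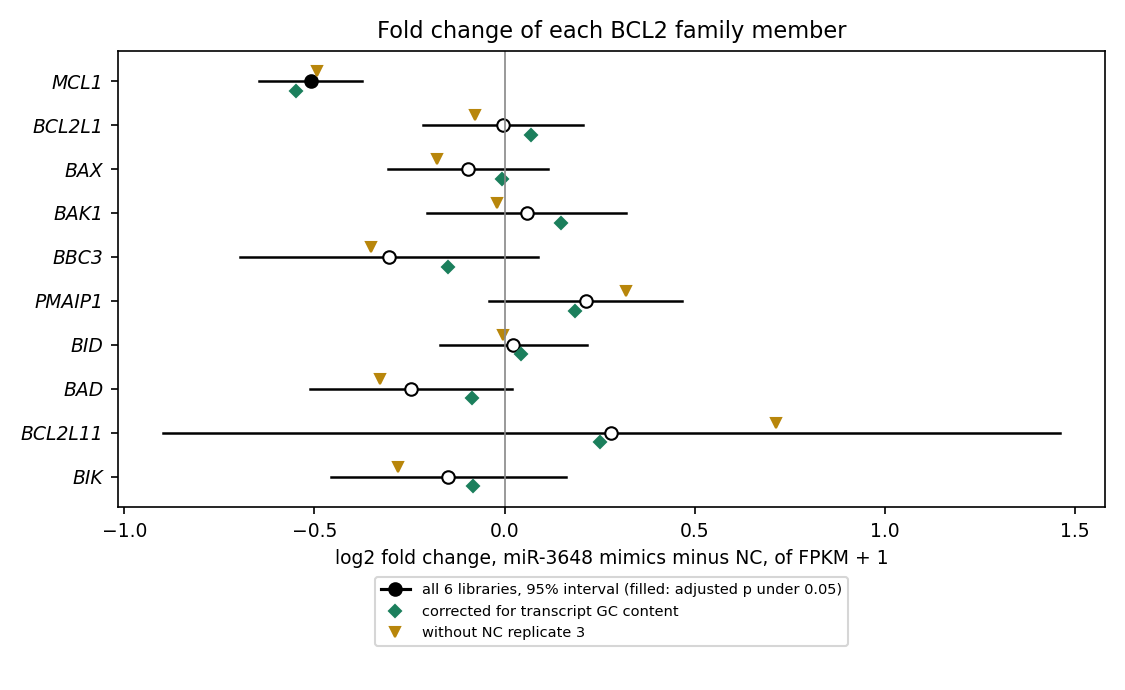
Log2 fold change of each member, mimics minus NC, with its 95% interval from limma over all 6 libraries (black circles), and its estimate after GC correction (green diamonds) and without NC replicate 3 (gold triangles). MCL1, at -0.51, is the filled symbol, and the 6-library intervals of the other 9 members include 0.

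In all, 1 of 10 members was called lower and 0 higher by limma, where 0.175% and 0.233% of all tested genes were. MCL1 was also the single member with an unadjusted p under 0.05, where 14.6% of all tested genes had one. Of the 10 log2 fold changes, 4 were positive and 6 negative, with a median of -0.051 for the members and -0.0046 for all tested genes. By mean level per length the order in NC libraries was BCL2L1, BAX, MCL1, BAK1, BIK, BAD, BBC3, BID, PMAIP1 and BCL2L11. MCL1 and BAX were neighbours whose NC values overlapped, while every mimic value of MCL1 lay below every mimic value of BAX, the lowest of which was 68.6 FPKM. BAK1 stood apart from its neighbours in both groups, and the values of BIK, BAD, BBC3, BID and PMAIP1 ran into one another.

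The members spread over the trend with GC content in different ways. BAX, BAK1, BCL2L1 and BIK have transcripts of 56.0% to 58.9% GC, and in each NC replicate 3 lay 0.22 to 0.39 log2 units below NC replicates 1 and 2. PMAIP1, at 45.6% GC, lay 0.32 above them there, and MCL1, at 45.1% GC, lay 0.054 above. Tested genes with 44% to 48% GC had a median log2 fold change of 0.015, and MCL1 lay at -0.51.

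**Figure D4:**
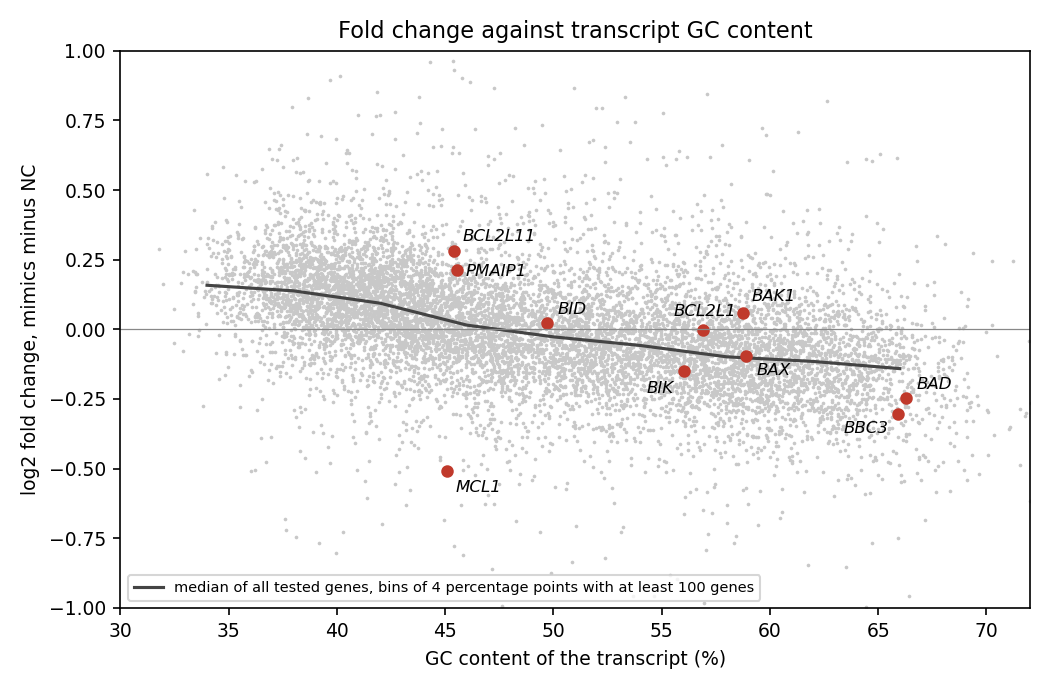
Log2 fold change, mimics minus NC, against the GC content of the transcript for the tested genes inside the axes (grey, 10178 of 10213 genes), with their median in bins (line) and the 10 members (red). The median declines from 0.16 at the low end to -0.14 at the high end, and MCL1 lies far below the line while BBC3 and BAD lie below its end at high GC content.

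The genes whose profile over the 6 libraries was nearest to that of MCL1, by the root mean square difference of centred log2(FPKM + 1) values, were KPNA6, MBOAT1, DRAM1, C9orf152 and UCK1. The differences were 0.029, 0.049, 0.051, 0.052 and 0.053 log2 units. KPNA6, which encodes an importin alpha of nuclear import, was at 12.5, 12.7 and 12.6 FPKM in mimic libraries and at 18.7, 19.1 and 19.1 FPKM in NC libraries. The nearest member of the family was BAD, at 0.188 log2 units, rank 1138 of 10285 genes compared.

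Other genes around the family were examined as 5 lists with 47 tested genes, of which limma called 0 higher and 0 lower. An unadjusted p under 0.05 was found for 7 of the 47, where 14.6% of all tested genes had one, and the groups did not overlap for 10, where 22.2% of all tested genes did not. Without NC replicate 3, 8 were called against 14.8% of all tested genes, and after GC correction 1 was, against 1.18%. These list counts are near the shares over all genes. Of 13 further BCL2 family symbols 7 were listed and 6 tested, with a median log2 fold change of -0.038, 2 positive and 4 negative. BCL2, BCL2A1 and BCL2L10, the other anti-apoptotic genes sought, had no row in the table used here. BCL2L12 was at 23.2, 20.6 and 21.5 FPKM in mimic libraries and at 23.2, 26.9 and 19.5 FPKM in NC libraries. BNIP3L and BCL2L15 averaged 8.70 ± 0.396 and 7.79 ± 0.368 FPKM in mimic libraries and 9.40 ± 0.833 and 7.54 ± 0.374 FPKM in NC libraries (SD, n = 3 each).

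BCL2L2, which encodes the anti-apoptotic protein BCL-W, switched between libraries of the same group. It was at 13.8, 0.606 and 12.6 FPKM in mimic libraries and at 0.908, 11.8 and 0.313 FPKM in NC libraries. High and low values occurred in both groups, and the log2 fold change of 1.11 had a 95% interval from -1.50 to 3.72 (limma adjusted p = 0.65). The read-through gene BCL2L2-PABPN1, which overlaps it on the same strand, was at 4.85 to 5.84 FPKM in mimic libraries and at 3.23 to 9.08 FPKM in NC libraries. The assignment of reads between these genes was not tested, and this locus was looked at after its values were seen.

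Genes that set the stability of the MCL1 protein (11 tested) had a median log2 fold change of -0.044, and none was called. HUWE1, a ubiquitin ligase that targets MCL1, was at 13.7, 13.5 and 14.2 FPKM in mimic libraries and at 19, 16.3 and 15.4 FPKM in NC libraries. These groups did not overlap, mimics being at -0.27 relative to NC on the log2 scale. The limma adjusted p of HUWE1 was 0.27, 0.048 without NC replicate 3 and 0.18 after GC correction. GSK3A, whose kinase marks MCL1 for degradation, averaged 15.2 ± 0.852 FPKM with mimics and 17.9 ± 2.18 FPKM with NC. Its limma adjusted p was 0.38, 0.037 without NC replicate 3 and 0.42 after GC correction. MARCH5 averaged 7.91 ± 0.400 and 9.10 ± 0.598 FPKM, and UBE2F 5.26 ± 0.443 and 6.02 ± 0.246 FPKM (mimics and NC, SD, n = 3 each). The 10 genes of MCL1 transcription and mRNA control had a median log2 fold change of -0.057. Of these, SP1, CREB1 and ELK4 averaged 20.3 ± 2.13, 1.74 ± 0.414 and 6.38 ± 0.217 FPKM with mimics and 22.7 ± 1.21, 2.02 ± 0.308 and 5.69 ± 1.69 FPKM with NC.

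Downstream of the family, the 11 genes of membrane channels and released factors had a median log2 fold change of -0.022. CYCS, which encodes cytochrome c, was at 42.5, 41.4 and 43.6 FPKM in mimic libraries and at 20.2, 30.9 and 27.4 FPKM in NC libraries. The groups did not overlap, and the mimic values were higher by 0.70 on the log2 scale. For CYCS the limma adjusted p was 0.14, 0.046 without NC replicate 3 and 0.13 after GC correction. VDAC3, an outer membrane channel, was at 57.2, 56.0 and 55.5 FPKM in mimic libraries and at 47.9, 47.1 and 50.1 FPKM in NC libraries. It did not overlap either (log2 fold change 0.21). For VDAC3 the limma adjusted p was 0.21, 0.032 without NC replicate 3 and 0.14 after GC correction. CASP9 and AIFM1 averaged 2.45 ± 0.188 and 25.4 ± 0.506 FPKM with mimics and 2.96 ± 0.409 and 27.6 ± 1.53 FPKM with NC (SD, n = 3 each).

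Upstream, the 9 tested transcription factors of BH3-only genes had a median log2 fold change of 0.077. JUN, a factor of the BIM gene among others, was at 33.2, 31.9 and 33.1 FPKM in mimic libraries and at 27.7, 26.7 and 21.1 FPKM in NC libraries. The groups did not overlap, and JUN was higher by 0.37 on the log2 scale, at a limma adjusted p of 0.22, of 0.038 after GC correction and of 0.034 without NC replicate 3. E2F1 was at 10.5, 11.5 and 10.5 FPKM in mimic libraries and at 14.5, 13.3 and 12.7 FPKM in NC libraries. Its log2 fold change was -0.29, at a limma adjusted p of 0.22, of 0.041 without NC replicate 3 and of 0.29 after GC correction. HIF1A averaged 58.8 ± 2.85 FPKM with mimics and 47.8 ± 8.73 FPKM with NC. Its limma adjusted p was 0.33, 0.027 without NC replicate 3 and 0.16 after GC correction. MYC was at 19.6 FPKM in mimic replicate 1 and between 1.25 and 2.09 FPKM in the other 5 libraries.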

How the data were processed

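RNA was sequenced from 3 miR-3648 mimics and 3 NC libraries, made with a stranded kit from total RNA per the labels' protocols, and grouped by sample title. The values are FPKM per gene as the authors deposited them. The submitters' processing notes list StringTie 1.3.3, cutadapt and the build GRCh37. Which aligner, annotation release or strand setting was used is not given in the sources used here. Overlapping gene models can share reads. Each library's listed FPKM summed to between 208274 and 222947, and this sum is no measure of depth. Among 312 genes under 0.5 FPKM in NC replicate 1 or 2, no more than 2 shared a ratio to 4 decimals, so whole reads could not be recovered, the depth is unknown and no counting interval is given.

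Values were transformed as log2(FPKM + 1), which understates changes of low genes. Genes with a mean of at least 1 FPKM entered a two-sided test in limma 3.58.1 (R 4.3.3), its prior variance following intensity. Benjamini-Hochberg adjustment over 10286 genes was applied at 0.05. The fit was also run on simulated libraries that had no GC trend. There it called 90 of 100 genes with a true log2 change of 1.0, 46 of 100 at 0.5 and 9 of 10086 without a change. Transcript GC content, from the longest coding transcript in GENCODE v29 (GRCh38, used for sequence only), was available for 99.3% of tested genes; GC correction subtracted a loess (span 0.3) of each library's deviations. Alternatives were pseudocounts, filters, scalings, a replicate block and leaving out each library. The members and lists were chosen with earlier results of these data known. Named genes were the members, called list genes, the 4 list genes of smallest p, overlapping genes and the 5 profiles nearest to MCL1; 1 gene so chosen is not reported here. The BCL2L2 locus was added after its values were seen.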

Additional observations from a re-analysis of the deposited data

How the results depend on the processing

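MCL1 kept its direction in all 17 alternatives, with log2 fold changes from -0.56 to -0.49 and limma adjusted p values from 0.0035 to 0.17. It was called in 10 and not in 7. As its groups did not overlap, leaving out a library or adding the block to the main fit could not turn its direction. The 42 calls over all genes became 121 with GC correction, 11 with the replicate block, 13 with the replicate block and GC correction, 118 with GC correction and NC replicate 3 left out (chosen after seeing the data), and 8 to 1527 when 1 library was left out, the highest without NC replicate 3. The count of members called was 0 with the replicate block, with or without GC correction, and 0 to 2 when 1 library was left out, PMAIP1 joining MCL1 without NC replicate 3. Under the replicate block MCL1 was at -0.51 (limma adjusted p = 0.13), and at -0.55 with GC correction as well (0.064); with 1 library left out it ranged from -0.52 to -0.49, where fewer samples were fitted. The deviations of same-numbered libraries from their group means correlated at r = 0.039, -0.042 and 0.068. Those of differently numbered libraries correlated at -0.12 to 0.10. With 3 libraries per group, these correlations cannot decide whether a number stands for a shared culture or batch. The log2 ratio of MCL1 to BCL2L1 ranged from -0.61 to -0.42 with 1 library left out, was -0.51 with a pseudocount and in numbered pairs, and its sign flip p over 3 pairs of 0.25 is the smallest possible.

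Signs turned for 5 genes with log2 fold changes between -0.077 and 0.058 and for BCL2L11, at 0.28 with a wide interval, and the cause was not tested. With GC correction, with or without the block, BCL2L1 was at 0.070, BCL2L12 at 0.015 and BCL2L15 at -0.037. With GC correction and NC replicate 3 left out, BCL2L1 was at 0.059 and BCL2L15 at -0.062. With 1 library left out, BCL2L1 ranged from -0.078 to 0.077, BAK1 from -0.019 to 0.17, BID from -0.0044 to 0.069, BCL2L11 from -0.22 to 0.71 and BCL2L12 from -0.19 to 0.031. The filter of at least 5 FPKM left BCL2L11 out.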
